A study of Danio rerio with 12 samples.

Results

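gldc (ENSDARG00000035120) and mthfd1l (ENSDARG00000042221) are 2 of the 25473 genes counted in 12 libraries of whole zebrafish larvae at 3 days post-fertilization (dpf). The pair was chosen from the measured differences between genotypes in these same libraries, so the values of both genes in the 3 genotype comparisons are given as a description, without a test. The libraries hold polyA RNA of 3 genotypes, with 4 libraries each: WT larvae, larvae labelled yap-/-, called yap mutant here, and larvae labelled yap-/-;taz-/-, called yap taz mutant. The yap-/- genotype is thus shared by both mutant groups. The labels give neither strain, sex, the number of larvae in a library nor the kind of mutation in each allele. Yap and Taz are transcriptional co-activators held in check by the Hippo kinase pathway, and the series asks how Yap bears on glucose use and nucleotide synthesis in organ growth.

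One-carbon metabolism carries single carbon units on tetrahydrofolate, the reduced form of folate, and delivers them to purine, thymidylate and methionine synthesis. In mitochondria such units come from serine, from glycine, and from the methyl groups of dimethylglycine and sarcosine. The gldc gene encodes glycine decarboxylase, the P-protein of the glycine cleavage system, which removes carbon dioxide from glycine and works with an aminomethyltransferase (amt), a lipoyl carrier (gcsh) and dihydrolipoamide dehydrogenase (dldh). The mthfd1l gene encodes the mitochondrial formyl-tetrahydrofolate synthetase that releases formate, which leaves the mitochondrion and supplies the cytosolic folate pool. In humans and mice, loss of GLDC function causes nonketotic hyperglycinaemia, and mouse embryos without Gldc or Mthfd1l can develop neural tube defects.

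Total counts ranged from 7028251 to 8657381 per library. Levels are given as CPM, counts scaled to a common library size with TMM factors, and 3 counts corresponded to 0.334 to 0.443 CPM. YAP1 (ENSDARG00000068401) RNA was present in every library, at 78.3 to 97.8 CPM in WT, 51.7 to 69.8 CPM in yap mutants and 64.6 to 73.1 CPM in yap taz mutants. WWTR1 (ENSDARG00000067719), the gene of Taz, was at 5.40 to 8.34 CPM in WT, 9.22 to 11.4 CPM in yap mutants and 4.48 to 6.61 CPM in yap taz mutants. Calls were made with edgeR's quasi-likelihood test over 19493 genes, where the Benjamini-Hochberg adjusted p was under 0.05. By that rule 9.13% of genes were called between the yap mutant and WT (5.72% higher and 3.41% lower in the mutant), 27.7% between the yap taz mutant and WT (13.9% higher and 13.8% lower) and 4.18% between the yap taz mutant and the yap mutant (1.92% higher and 2.26% lower). These shares come from a fit without pairing. With the replicate number as a block, which compares same-numbered libraries, 2758 genes were called between the yap mutant and WT rather than 1780. The labels do not say whether libraries of a genotype came from separate clutches, so p-values speak only of the spread among the libraries at hand. The gene lists below were chosen with earlier results of these data known. Their shares of called genes are therefore a description, and enrichment was not tested.

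The gldc transcript stood lowest in WT, higher in the yap mutant and highest in the yap taz mutant, with no overlap between any pair of genotypes. In WT its level was 32.4, 42.8, 37.9 and 30.1 CPM in libraries 1 to 4. In the yap mutant it was 117, 91.9, 64.8 and 115 CPM, and even the lowest of these, library 3, lay above the highest WT library. In the yap taz mutant it was 180, 186, 204 and 234 CPM, all above the highest yap mutant library. The means were 35.8 ± 5.70 CPM in WT (SD, n = 4), 97.2 ± 24.5 CPM in yap mutants and 201 ± 24.5 CPM in yap taz mutants. These levels rest on 268 to 325 counts per WT library, 506 to 944 counts per yap mutant library and 1383 to 1737 counts per yap taz mutant library, so no value lay near the detection floor.

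Relative to WT, gldc RNA was 2.72-fold higher in the yap mutant, a log2 fold change of 1.44 ± 0.164 (SE), and 5.63-fold higher in the yap taz mutant, a log2 fold change of 2.49 ± 0.166. The yap taz mutant stood 2.07-fold above the yap mutant, a log2 fold change of 1.05 ± 0.156. The 3 comparisons share libraries and are not independent of each other. Among the 19493 genes tested, gldc ranked 139th by log2 fold change in the yap mutant against WT, 76th in the yap taz mutant against WT and 121st between the mutants, counting from the largest increase. The full order, every WT library below every yap mutant library and those below every yap taz mutant library, was found in 241 genes, or 1.24% of those tested.

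The mthfd1l transcript was also highest in the yap taz mutant, with a smaller step. In WT its level was 98.9, 69.9, 78.3 and 127 CPM in libraries 1 to 4. In the yap mutant it was 156, 103, 111 and 130 CPM, so that library 4 of WT reached above libraries 2 and 3 of the yap mutant and these groups overlapped. In the yap taz mutant it was 182, 197, 205 and 185 CPM, above every library of the other genotypes. The means were 93.5 ± 25.5 CPM in WT (SD, n = 4), 125 ± 23.5 CPM in yap mutants and 192 ± 10.9 CPM in yap taz mutants.

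Relative to WT, mthfd1l RNA was 1.34-fold higher in the yap mutant, a log2 fold change of 0.42 ± 0.157 (SE), and 2.05-fold higher in the yap taz mutant, a log2 fold change of 1.04 ± 0.157. Between the mutants the fold was 1.54, a log2 fold change of 0.62 ± 0.155. Its ranks by increase were 2095th, 714th and 538th of 19493 in the same 3 comparisons. Groups that do not overlap were seen in 13.3% of genes between the yap mutant and WT, in 28.9% between the yap taz mutant and WT and in 10.8% between the mutants, in either direction. Because a library is made from whole larvae, a change in the number of cells of a type and a change in RNA per cell cannot be told apart. This holds for these genes and for any other described here.

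**Figure D1:**
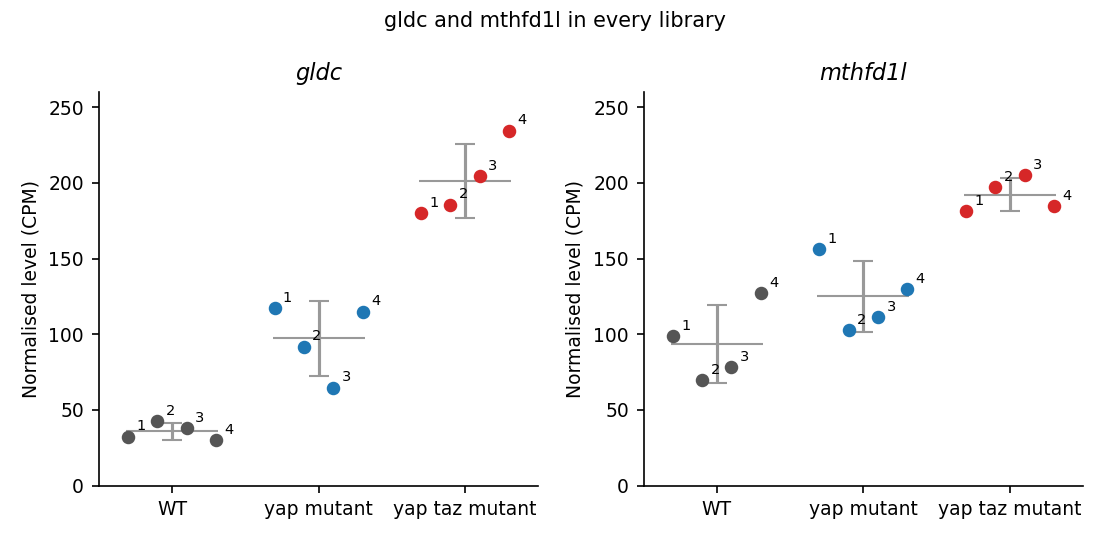
Normalised level (CPM, linear axis from 0) of gldc (left) and mthfd1l (right) in each of the 12 libraries, by genotype. Points are libraries with their number, the grey line is the mean and the bar is ± 1 SD (n = 4); gldc separates all 3 genotypes, from 30.1 to 42.8 CPM in WT up to 180 to 234 CPM in yap taz mutants, while mthfd1l overlaps between WT and the yap mutant.

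Within genotypes, the order of the libraries differed between the 2 genes in WT and was shared in part in the yap mutant. In WT the libraries highest in gldc, numbers 2 and 3, were the lowest in mthfd1l. In the yap mutant both genes were highest in libraries 1 and 4. The spread of gldc was widest in the yap mutant, with a coefficient of variation of 25.2% against 15.9% in WT and 12.2% in the yap taz mutant. That of mthfd1l was 27.2% in WT, 18.8% in yap mutants and 5.68% in yap taz mutants. Across genes, same-numbered libraries of WT and the yap mutant deviated together. Within these pairs, the log2 CPM of gldc was higher in the yap mutant by 1.85, 1.10, 0.77 and 1.92, and that of mthfd1l by 0.66, 0.56, 0.51 and 0.03.

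The gain in gldc RNA was not shared by the other genes of the glycine cleavage system. Of these 4 genes, 0 were called in the yap mutant against WT, 3 (75%) were called lower in the yap taz mutant against WT, and 0 were called between the mutants. Of all genes, 9.13%, 27.7% (13.8% lower) and 4.18% were called in the same comparisons. Behind the counts of 0 from edgeR, 3 and 1 of the partners had an unadjusted p under 0.05, and limma-voom and DESeq2 also called 0. The share of all genes under that unadjusted threshold was not counted. The amt transcript, for the aminomethyltransferase that passes the methylene group to tetrahydrofolate, was at 25.9 to 42.9 CPM in WT, 15.4 to 30.3 CPM in yap mutants and 19.4 to 24.8 CPM in yap taz mutants. Against WT, amt RNA of the yap taz mutant fell by 0.68 ± 0.179 on the log2 scale (SE, adjusted p = 0.00973, edgeR). The dldh transcript, for the dehydrogenase that reoxidises the lipoyl carrier and also serves the pyruvate and 2-oxoglutarate dehydrogenases, fell by 0.42 ± 0.0817 (adjusted p = 0.00108, edgeR), from 223 to 277 CPM in WT to 175 to 203 CPM. For the yap mutant over WT the log2 fold change was -0.51 ± 0.176 for amt (adjusted p = 0.0815, edgeR) and -0.23 ± 0.0815 for dldh (adjusted p = 0.0912). With the replicate number as a block both passed, at adjusted p = 0.00945 and 0.0309.

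The remaining 2 partners encode the lipoyl carrier protein H. The gcsha transcript fell by 0.33 ± 0.109 in the yap taz mutant (adjusted p = 0.0339, edgeR), a call that was lost without any one of WT 2, WT 3 or yap taz mutant 1 to 4 (adjusted p = 0.0509 to 0.113). The gcshb transcript differed by -0.43 ± 0.20 (adjusted p = 0.122). Summed over amt, gcsha, gcshb and dldh, the level was 319 to 394 CPM in WT, 284 to 345 CPM in yap mutants and 253 to 282 CPM in yap taz mutants, and the medians of 374, 305 and 271 CPM stood in the opposite order to gldc, though WT and yap mutant overlapped. Most of this sum was dldh, whose enzyme is shared with other dehydrogenases. Of 10 nuclear genes for other proteins of the mitochondrial matrix or inner membrane listed for comparison, 8 (80%) were also called lower in the yap taz mutant against WT. This share stands beside 13.8% of all genes called lower. Their median log2 fold change was -0.43, against 0.00803 over all genes tested. In the other comparisons edgeR called 0 of the 10 genes. With the replicate number as a block, 4 were called in the yap mutant against WT, all lower. Over all genes that fit called 1197 lower, against 665 without the block. For the yap mutant over WT, 4 of the 10 had an unadjusted p under 0.05 in edgeR, where limma-voom called 0 and DESeq2 1. Between the mutants 9 of the 10 did, where each of those tools called 1. The share of all genes under the unadjusted threshold was not counted.

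**Figure D2:**
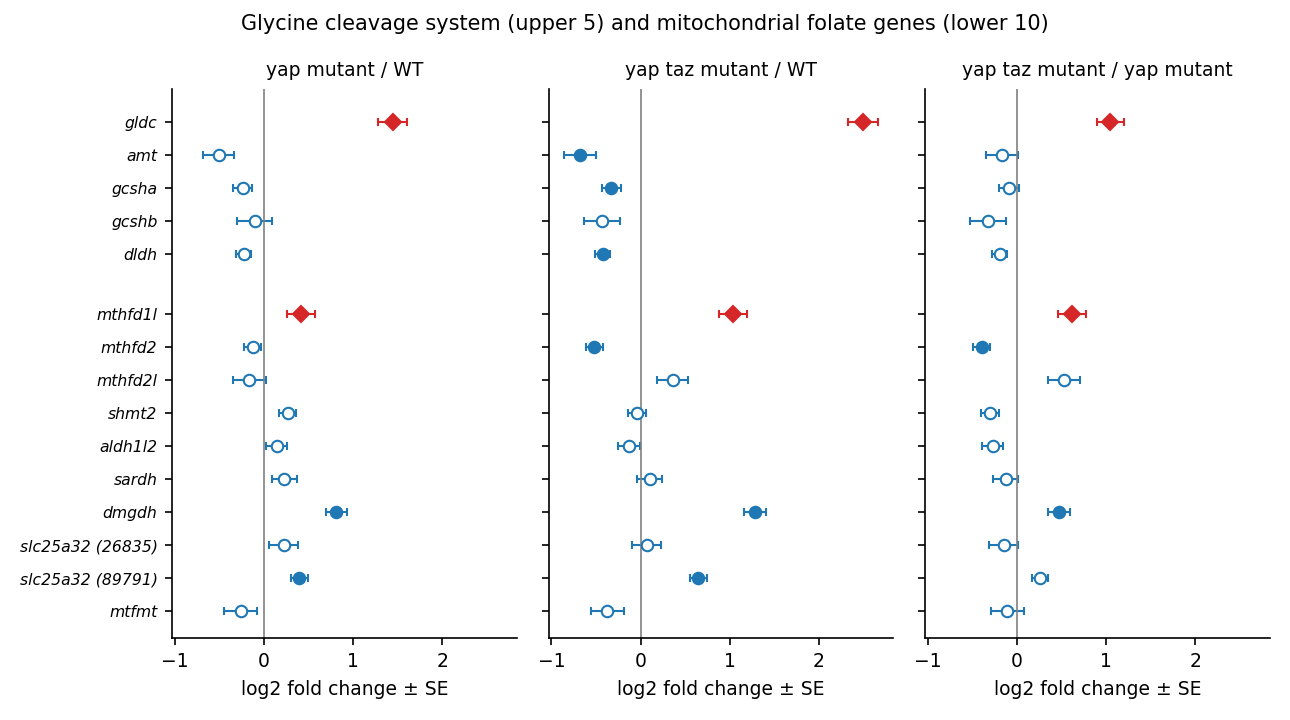
Log2 fold change ± SE from the edgeR fit for gldc and its 4 partners (upper block) and for mthfd1l and the 9 other mitochondrial folate genes (lower block), in the 3 genotype comparisons. Red diamonds are gldc and mthfd1l, filled blue points are genes called at an adjusted p under 0.05 and open points are genes not called; bracketed digits are the last 5 of the gene identifier where a symbol occurs more than once. All 4 partners of gldc lie left of 0 in each panel, and dmgdh is the gene farthest right after gldc in the left and middle panels.

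Among the 9 mitochondrial folate genes other than mthfd1l, 2 were called higher in the yap mutant against WT, 2 were called higher and 1 lower in the yap taz mutant against WT, and 1 each way between the mutants. These shares of 22.2%, 33.3% and 22.2% stand beside 9.13%, 27.7% and 4.18% of all genes, so that the share for the yap taz mutant over WT was near the background. Against WT, the largest increase in either mutant was in dmgdh (ENSDARG00000025703), for the dehydrogenase that takes a methyl group from dimethylglycine and hands it to mitochondrial tetrahydrofolate. Its level was 341 to 493 CPM in WT, 596 to 809 CPM in yap mutants and 840 to 1090 CPM in yap taz mutants, with no overlap. It rose by a log2 fold change of 0.81 ± 0.121 in the yap mutant (adjusted p = 0.000608, edgeR) and 1.28 ± 0.122 in the yap taz mutant (adjusted p = 1.81e-06). The step between the mutants, 0.47 ± 0.120 (adjusted p = 0.0349), was not called without any one of libraries 2, 3 or 4 of either mutant (adjusted p = 0.051 to 0.131).

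For the neighbouring step to mthfd1l in the pathway, mthfd2 RNA moved the other way in the yap taz mutant. In the yap mutant against WT it was not called. The mthfd2 gene encodes the mitochondrial dehydrogenase and cyclohydrolase that makes the formyl-tetrahydrofolate on which Mthfd1l acts. Its level was 39.2 to 43.0 CPM in WT, 32.8 to 44.4 CPM in yap mutants and 26.7 to 31.6 CPM in yap taz mutants, below every library of the other genotypes. It fell by 0.52 ± 0.0955 against WT (adjusted p = 0.000724, edgeR). Against the yap mutant it fell by 0.39 ± 0.0962 (adjusted p = 0.028), a call lost without any one of yap mutant 2 or 3 or yap taz mutant 1, 2 or 3 (adjusted p = 0.0671 to 0.0863).

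The related mthfd2l was at 3.05 to 5.67 CPM over all libraries and was not called in any comparison (log2 fold change 0.52 ± 0.182 between the mutants, adjusted p = 0.122, edgeR). The serine hydroxymethyltransferase of mitochondria, shmt2, which makes glycine and a methylene unit from serine, was not called either, with a log2 fold change of 0.26 ± 0.0970 in the yap mutant (adjusted p = 0.101) and -0.04 ± 0.0986 in the yap taz mutant against WT (adjusted p = 0.796). One of the 2 genes with the symbol of the folate carrier slc25a32 (ENSDARG00000089791) rose in the yap taz mutant by a log2 fold change of 0.65 ± 0.0939 (adjusted p = 9.9e-05). The same gene rose in the yap mutant by 0.39 ± 0.0944 (adjusted p = 0.017, lost without any one of WT 1, yap mutant 2 or yap mutant 4, at 0.0507 to 0.0598). The other slc25a32 gene, and aldh1l2, sardh and mtfmt, were not called in any comparison.

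Taken over all 6 one-carbon lists without gldc and mthfd1l, 60 genes were tested. In the yap mutant against WT, 11 were called (18.3%, 9 higher and 2 lower, median log2 fold change 0.03), beside 9.13% of all genes. With the replicate number as a block this count was 17, with 12 higher and 5 lower, and without WT 3 it was 7. All genes called in those runs numbered 2758 and 1059, against 1780 in the fit reported. In the yap taz mutant against WT, 29 were called (48.3%, 15 higher and 14 lower, median -0.06), beside 27.7% of all genes. Between the mutants, 10 were called (16.7%, 7 higher and 3 lower, median -0.12), beside 4.18%. That last count was 5 without yap mutant 2, 4 without yap mutant 3, 4 without yap taz mutant 2, 6 without yap taz mutant 3 and 4 without yap taz mutant 4. All genes called in the first 4 of these runs numbered 468, 538, 441 and 615, against 814 in the fit reported. The medians over all genes tested were 0.00374, 0.00803 and -0.000956 in the same order.

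Of 15 genes listed for serine and glycine supply, transport or turnover, 3 (20%) were called higher in the yap mutant against WT. In the yap taz mutant against WT, 5 were called higher and 2 lower (46.7%). These shares stand beside 9.13% and 27.7% of all genes. With the replicate number as a block, 4 were called higher and 0 lower in the yap mutant, or 5 higher and 1 lower with the block in 8 libraries. All genes called in those fits numbered 2758 and 3380, against 1780 without the block. The phgdh gene, for the first enzyme of serine synthesis from a glycolytic intermediate, was at 69.8 to 83.1 CPM in WT, 97.0 to 139 CPM in yap mutants and 101 to 124 CPM in yap taz mutants. It rose by a log2 fold change of 0.57 ± 0.110 in the yap mutant (adjusted p = 0.00413, edgeR) and 0.61 ± 0.110 in the yap taz mutant (adjusted p = 0.000624). The next enzyme gene, psat1, rose by 0.44 ± 0.125 in the yap taz mutant (adjusted p = 0.015, lost without yap taz mutant 1 or 2, at 0.0527 to 0.0587), and the last, psph, was not called in any comparison.

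The tdh gene encodes threonine dehydrogenase, which opens the route from threonine to glycine. Its level was 100 to 123 CPM in WT, 146 to 222 CPM in yap mutants and 148 to 169 CPM in yap taz mutants. Both mutants lay above WT, with log2 fold changes of 0.66 ± 0.108 (adjusted p = 0.00135, edgeR) and 0.55 ± 0.109 (adjusted p = 0.0014). The symbol slc25a38, the mitochondrial glycine carrier that serves haem synthesis, belongs to 2 genes. The rarer of these (ENSDARG00000059805) had 3 to 13 counts per WT library, 25 to 99 counts per yap mutant library and 75 to 195 counts per yap taz mutant library. It rose by log2 fold changes of 3.11 ± 0.507 (adjusted p = 0.00123) and 4.39 ± 0.466 (adjusted p = 5.07e-06) in the yap and yap taz mutants, on WT counts close to the floor. The other (ENSDARG00000074533), at 24.8 to 28.2 CPM in WT, rose in the yap taz mutant by 0.69 ± 0.101 (adjusted p = 0.000114). Between the mutants both slc25a38 genes were called higher, at adjusted p = 0.0424 and 0.0181. The first of these calls was lost without any one of WT 1 or 3, yap mutant 2 or 3, or yap taz mutant 2 or 4 (0.0521 to 0.152), with DESeq2 (0.103) and with the 8 libraries alone (0.0521). The second was lost without any one of yap mutant 3 or yap taz mutant 2 or 4 (0.0523 to 0.0606).

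The 2 genes of this list that fell in the yap taz mutant act on serine. The serine racemase gene srr fell by 0.67 ± 0.148 on the log2 scale (adjusted p = 0.00307, edgeR), and sdsl, a relative of serine dehydratase, fell by 0.86 ± 0.298 (adjusted p = 0.0402). The sdsl call was lost without any one of WT 1 to 3 or yap taz mutant 1 to 4 (adjusted p = 0.0605 to 0.111), and with limma-voom (0.126). Of 5 genes whose enzymes use glycine, gnmt, which methylates glycine to sarcosine, was called higher in all 3 comparisons. It rose by 0.73 ± 0.0967 in the yap taz mutant against WT (adjusted p = 4.4e-05). Its call for the yap mutant over WT (0.36 ± 0.0970, adjusted p = 0.0296) was lost without WT 1, 3 or 4 or yap mutant 1 or 2, at 0.0537 to 0.0944, and with the 8 libraries alone (0.0539). The call between the mutants (0.37 ± 0.0958, adjusted p = 0.0391) was lost without WT 1, yap mutant 1, 3 or 4, or yap taz mutant 2, 3 or 4, at 0.0508 to 0.124. In the yap taz mutant against WT, gatm, for the first step of creatine synthesis, fell by 0.46 ± 0.120 (adjusted p = 0.00883), and alas2, for haem synthesis in red cells, fell by 1.27 ± 0.342 (adjusted p = 0.0111). The alas2 level spanned 37.5 to 149 CPM among WT libraries and 30 to 39.3 CPM among yap taz mutant libraries.

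In the cytosol, the genes that fell include those of the thymidylate cycle, in which one-carbon units go to DNA precursors. The tyms gene (thymidylate synthase) was at 25.6 to 33.3 CPM in WT, 18.6 to 23.7 CPM in yap mutants and 14.6 to 19.7 CPM in yap taz mutants. It fell by 0.45 ± 0.115 in the yap mutant (adjusted p = 0.024, edgeR) and 0.79 ± 0.118 in the yap taz mutant (adjusted p = 0.000127). The dhfr gene, for the dihydrofolate reductase that restores tetrahydrofolate, fell by 0.58 ± 0.156 (adjusted p = 0.0289) and by 1.02 ± 0.162 (adjusted p = 0.000221). The tyms call for the yap mutant was lost without any one of WT 1 or 3 or yap mutant 2 or 4 (0.0607 to 0.0789), and the dhfr call without any one of WT 1 to 3 or yap mutant 1 or 4 (0.0642 to 0.0932). The calls in the yap taz mutant held in every alternative run. Of 12 mitosis marker genes, 8 (66.7%) were called lower in yap mutants and 12 (100%) in yap taz mutants, against WT. Of all genes, 3.41% and 13.8% were called lower in the same comparisons. The mitosis markers were also listed with earlier results of these data known. The summed level of the 12 markers was 794 to 910, 529 to 715 and 485 to 541 CPM in WT, yap mutant and yap taz mutant. The part of dividing cells in the lower tyms and dhfr levels was not tested.

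Other cytosolic folate genes were called as well. Against WT, one of the 2 mthfd1 genes (ENSDARG00000018266), for the cytosolic enzyme that takes up formate, rose in the yap taz mutant by 0.46 ± 0.128 (adjusted p = 0.0138, edgeR, lost without yap taz mutant 3 or 4 at 0.0525 to 0.0546). Its paralogue (ENSDARG00000040492) was not called, with a log2 fold change of -0.02 ± 0.0834. Between the mutants, ftcd, which passes a one-carbon unit from histidine breakdown to folate, rose by 0.50 ± 0.104 (adjusted p = 0.0115), and the proton-coupled folate transporter slc46a1 fell by 0.80 ± 0.170 (adjusted p = 0.0131). The slc46a1 gene was not called in either mutant against WT. With the replicate number as a block in 8 libraries, it was higher in the yap mutant than in WT by 0.49 ± 0.140 (adjusted p = 0.0265, edgeR, or 0.0749 without the block). Calls for ftcd (higher), shmt1 and slc19a1 (both lower) in the yap taz mutant against WT had adjusted p = 0.0238, 0.0357 and 0.0225 (edgeR). The ftcd call was lost without WT 1 or 4 or yap taz mutant 2, 3 or 4, the shmt1 call without WT 1, 2 or 3 or yap taz mutant 1, 3 or 4, and the slc19a1 call without WT 2 or 4 or yap taz mutant 2 or 3. Over these 3 genes the adjusted p without one such library was 0.052 to 0.122. Summed over all 13 genes of this list, the level was 505 to 571 CPM in WT, 496 to 552 CPM in yap mutants and 483 to 565 CPM in yap taz mutants.

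Of 14 genes of the methionine and homocysteine cycle, 2 were called higher in the yap mutant against WT, and 5 were called higher and 2 lower in the yap taz mutant against WT, or 14.3% and 50% beside 9.13% and 27.7% of all genes. With the replicate number as a block, 4 were called higher and 1 lower in the yap mutant. That fit called 2758 of all genes, against 1780 without the block. The bhmt gene encodes the methyltransferase that remakes methionine with a methyl group of betaine and yields dimethylglycine, the substrate of Dmgdh. Its level was 1195 to 1660 CPM in WT, 1978 to 2702 CPM in yap mutants and 3007 to 3864 CPM in yap taz mutants, with no overlap. It rose by log2 fold changes of 0.81 ± 0.115 (adjusted p = 0.00038, edgeR) and 1.31 ± 0.116 (adjusted p = 8.13e-07) against WT, close to those of dmgdh. Between the mutants it rose by 0.50 ± 0.114 (adjusted p = 0.0194, lost without yap mutant 2 or yap taz mutant 2 at 0.0664 to 0.0805). The folate-dependent route to methionine differed in sign: mtr, for methionine synthase, fell in the yap taz mutant by 0.79 ± 0.158 (adjusted p = 0.00139) against WT, from 19.5 to 30.3 CPM to 13.3 to 14.9 CPM. Its call against the yap mutant (adjusted p = 0.0316) was lost without any one of yap mutant 1 to 3 or yap taz mutant 1 to 4 (adjusted p = 0.0519 to 0.104), and with limma-voom (0.0559).

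The cystathionine beta-synthase genes, which join homocysteine to serine, also split. The cbsb gene (ENSDARG00000010946) rose by 0.67 ± 0.103 in the yap mutant (adjusted p = 0.00074, edgeR) and 0.91 ± 0.102 in the yap taz mutant (adjusted p = 8.84e-06). Its paralogue with the symbol CBS (ENSDARG00000053500) fell by 1.0 ± 0.194 in the yap taz mutant (adjusted p = 0.00116). Related to the hydrolase of S-adenosylhomocysteine, ahcyl1 rose by 0.48 ± 0.0834 (adjusted p = 0.000517) and ahcyl2a by 0.59 ± 0.166 (adjusted p = 0.015, lost without yap taz mutant 4 at 0.0539) in the yap taz mutant against WT. Between the mutants ahcyl1 rose by 0.38 ± 0.0834 (adjusted p = 0.0167, lost without yap taz mutant 4 at 0.0595). A mat2a gene (ENSDARG00000037121), for S-adenosylmethionine synthesis, had an adjusted p of 0.0456 in the yap taz mutant against WT, which was lost without any one of WT 2, 3 or 4, yap mutant 3 or yap taz mutant 1, 2 or 3 (0.0501 to 0.159), and with upper-quartile scaling (0.0556), no filter (0.0636) or limma-voom (0.0549). With the replicate number as a block, the yap mutant also differed from WT in CBS (-0.58 ± 0.122, adjusted p = 0.00596, edgeR), mat2a (0.53 ± 0.146, adjusted p = 0.0249) and ahcyl2a (0.44 ± 0.126, adjusted p = 0.03). Without the block their adjusted p was 0.0737, 0.069 and 0.11.

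**Figure D3:**
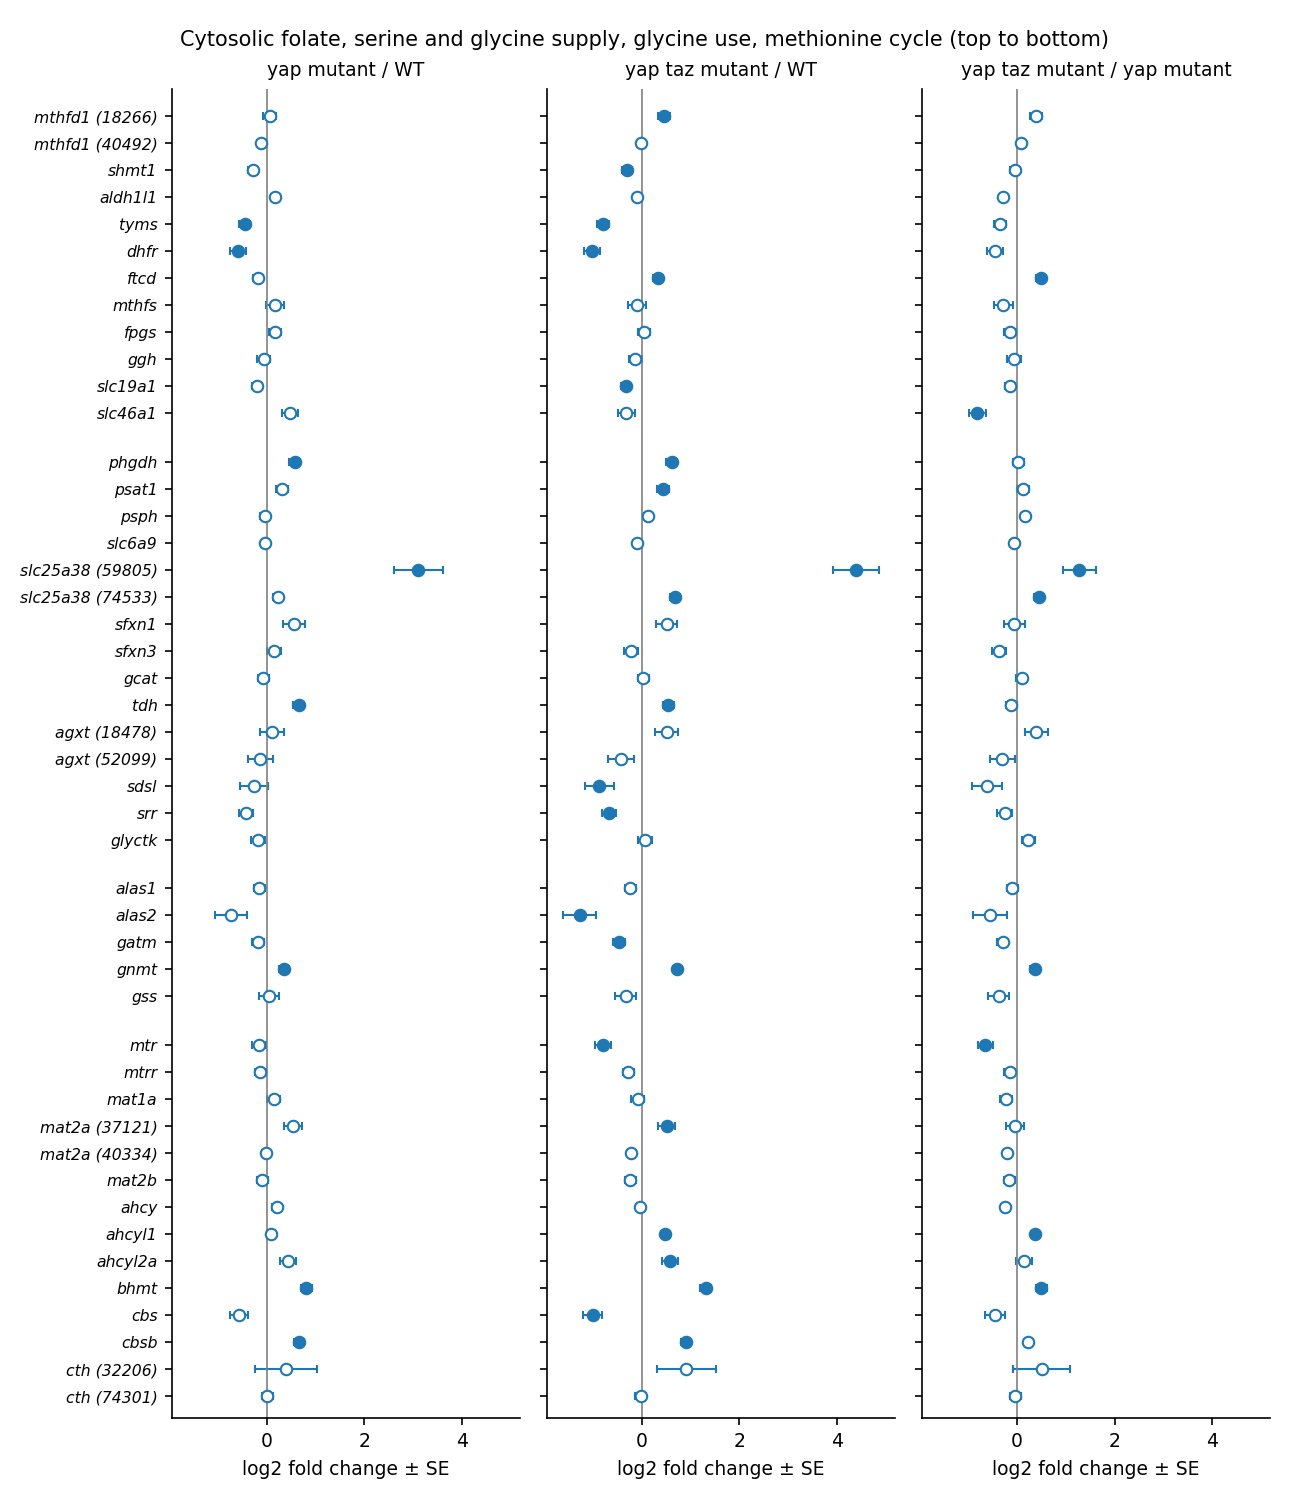
Log2 fold change ± SE from the edgeR fit for genes of the other 4 one-carbon lists in the 3 genotype comparisons, in blocks from top to bottom: cytosolic folate, serine and glycine supply, glycine use, and the methionine and homocysteine cycle. Filled points are genes called at an adjusted p under 0.05, open points are genes not called, and bracketed digits are the last 5 of the gene identifier; the rarer slc25a38 gene reaches 4.39 in the middle panel, and bhmt stands at 1.31 and dhfr at -1.02.

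Formate released by Mthfd1l feeds formyl groups into purine synthesis. Of 6 genes of that route, 3 (50%) were called higher in each mutant against WT, with 0 lower. Over all genes tested, the share called higher was 5.72% for yap mutant over WT and 13.9% for yap taz mutant over WT. The purine list was chosen with earlier results of these data known, so this contrast is a description. By edgeR, limma-voom or DESeq2, 0 of the 6 were called between the mutants, where 0 had an unadjusted p under 0.05. Of all genes, edgeR called 4.18% there. In the yap taz mutant the amidotransferase gene ppat rose by 1.01 ± 0.156 (adjusted p = 0.000176, edgeR), paics by 1.08 ± 0.211 (adjusted p = 0.00123), and atic, whose enzyme uses formyl-tetrahydrofolate, by 0.99 ± 0.191 (adjusted p = 0.00111). The gart gene, for the other formyl-using enzyme, was not called, with a log2 fold change of -0.13 ± 0.174 (adjusted p = 0.628). The ppat, paics and atic calls for the yap mutant (adjusted p = 0.0125, 0.026 and 0.0383) were lost without yap mutant 1. The paics call was also lost without WT 2, WT 3 or yap mutant 4 and with the 8 libraries alone (0.0638), and the atic call without WT 1, 2 or 3 or yap mutant 2 or 4 (0.0501 to 0.132 in all) and with DESeq2 (0.068). The summed level of the 6 genes was 659, 557, 477 and 832 CPM in WT 1 to 4, 1150, 785, 798 and 1165 CPM in yap mutant 1 to 4, and 1027, 1182, 1213 and 1218 CPM in yap taz mutant 1 to 4. WT 4 and yap mutant 1 and 4, the libraries high in these genes for their genotype, were also those where mthfd1l stood highest within its genotype. This order was not particular to purine genes. The same libraries were highest for their genotype in the summed mitochondrial folate genes without mthfd1l (739, 1059 and 938 CPM). They were also highest in the methionine and homocysteine cycle sum (3642, 4653 and 4543 CPM). The sum of the mitochondrial comparison genes ran the other way. Within genotypes it was lowest in WT 4 (3319 CPM) and in yap mutant 4 and 1 (2974 and 3064 CPM). Among yap taz mutant libraries, the purine sum and mthfd1l differed in order. The purine sum was highest in library 4 and mthfd1l in library 3.

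**Figure D4:**
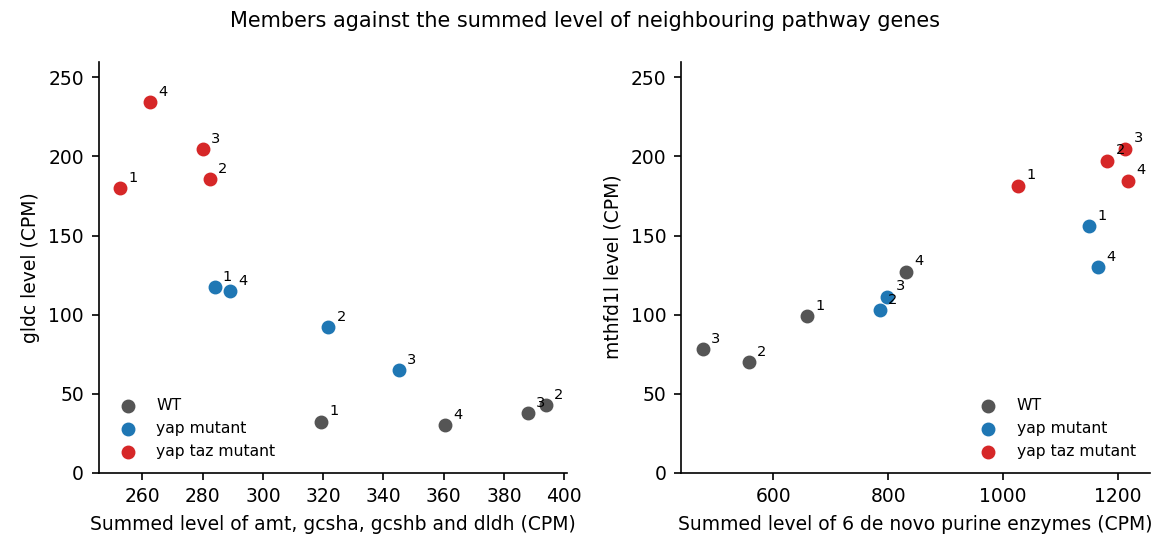
Left, gldc level against the summed level of its 4 partner genes, and right, mthfd1l level against the summed level of 6 purine synthesis genes, both in CPM with one point per library and its number. The horizontal axes do not start at 0, and most of the partner sum is dldh. The yap taz mutant libraries lie at the upper left of the left panel (partner sum 253 to 282 CPM, gldc 180 to 234 CPM) and at the upper right of the right panel (purine sum 1027 to 1218 CPM, mthfd1l 182 to 205 CPM).

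Several one-carbon genes are known in mammals as targets of the amino acid response, led by the transcription factor Atf4. Of 10 tested genes of that response, 3 were called higher in the yap mutant against WT, 3 in the yap taz mutant against WT and 1 between the mutants, with 0 lower. These shares of 30%, 30% and 10% stand beside 5.72%, 13.9% and 1.92% of all genes called higher. In either direction, 9.13%, 27.7% and 4.18% of all genes were called. The share for the yap taz mutant over WT was near that background of either direction. This list, too, was chosen with earlier results of these data known. The pseudokinase gene trib3 rose in all 3 comparisons, by 0.71 ± 0.116, 1.25 ± 0.115 and 0.55 ± 0.112 (adjusted p = 0.00135, 1.29e-06 and 0.0113, edgeR). The stress gene sesn2 rose in the yap taz mutant by 1.14 ± 0.190 (adjusted p = 0.000335), and ddit3 rose by 0.47 ± 0.107 (adjusted p = 0.00391). The asparagine synthetase gene asns was not called, with a log2 fold change of -0.16 ± 0.155 (adjusted p = 0.48). The calls for the yap mutant in sesn2 (adjusted p = 0.0359) and in the alanyl-tRNA synthetase gene aars1 (adjusted p = 0.0413) were lost without any one of WT 1, 3 or 4 or yap mutant 1, 2 or 4, and that of aars1 also without yap taz mutant 2, 3 or 4 (0.0501 to 0.132). With the 8 libraries alone they were lost too (0.062 and 0.0734), as was aars1 with no filter (0.0761).

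The genes with a pattern most like each of the pair were ranked among 15858 genes by the root mean square difference of log2 CPM, centred on each gene's mean over the 12 libraries. Nearest to gldc were JUNB (ENSDARG00000104773) at 0.162, ATF3 at 0.194, CEBPB at 0.197, itgb7 at 0.262 and SBNO2 at 0.267, on a scale where gldc itself has a spread of 1.05. JUNB, a subunit of the AP-1 transcription factor, was at 29.1 ± 5.96 CPM in WT (SD, n = 4), 90.2 ± 24.3 CPM in yap mutants and 192 ± 13.4 CPM in yap taz mutants. ATF3 and CEBPB encode transcription factors of stress and acute-phase responses. Neither was in the list of amino acid response genes above. The gene itgb7 encodes an integrin subunit of blood cells and had a mean of only 1.01 CPM in WT.

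Nearest to mthfd1l were vcana at 0.110, LHX3 at 0.168, fcer1gl at 0.180, apobb.1 at 0.183 and DMGDH at 0.188, against a spread of 0.50 for mthfd1l. The vcana gene encodes the matrix proteoglycan versican, and apobb.1 an apolipoprotein B of lipid transport. DMGDH, described above, was thus both a gene of the same mitochondrial folate pool and one of the nearest in pattern. The distance between gldc and mthfd1l themselves was 0.686, which placed mthfd1l 444th among the genes nearest to gldc.

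**Figure D5:**
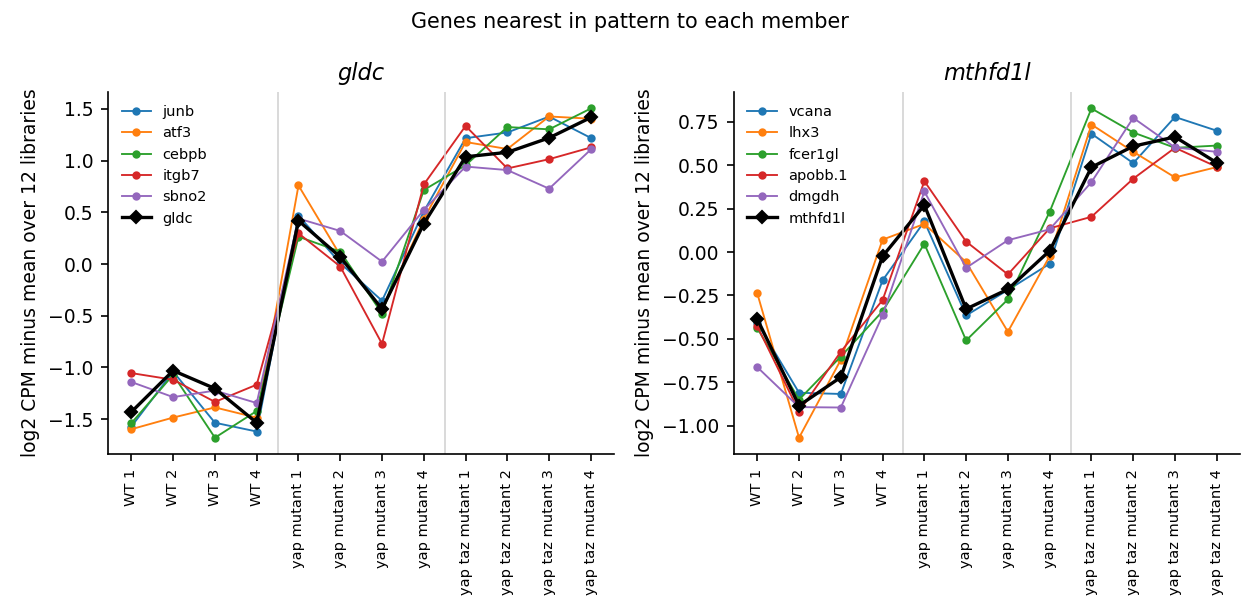
Log2 CPM minus the gene's mean over 12 libraries, by library, for gldc (left) and mthfd1l (right) in black with the 5 genes nearest in pattern to each. Lines only join the points of a gene, since libraries of a genotype have no order; in the left panel yap mutant 3 is the lowest yap mutant library for gldc and JUNB alike, and in the right panel the yap taz mutant libraries lie above 0 in all 6 genes. The genes were picked for likeness over these same libraries, so the shared shape follows from the choice.

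Glycine cleavage genes are known in mammals to be abundant in liver, kidney and glia, so markers of these cells, and of the floor plate and notochord, were read beside the pair. The summed level of 12 hepatocyte markers was 6024 to 6616 CPM in WT, 6000 to 7217 CPM in yap mutants and 6022 to 6891 CPM in yap taz mutants. Of the 11 tested, 4 were called higher and 3 lower in the yap mutant, and 4 each way in the yap taz mutant, against WT. These shares of 63.6% and 72.7% stand beside 9.13% and 27.7% of all genes. Summed levels were 2392 to 2557, 2177 to 2606 and 2273 to 2576 CPM for 14 radial glia and astrocyte markers, 605 to 781, 678 to 802 and 688 to 831 CPM for 14 pronephros markers, and 552 to 726, 535 to 624 and 512 to 601 CPM for 10 floor plate and notochord markers, in WT, yap mutant and yap taz mutant. In the yap taz mutant against WT, 2 glial markers were called higher and 7 lower, 4 pronephros markers higher and 5 lower, and 2 axial markers each way. These shares of 64.3%, 64.3% and 40% stand beside 27.7% of all genes. The summed levels of all 4 lists overlapped between the 3 genotypes, and 0 marker genes were at 0 in every library. These sums hide single markers that moved in opposite directions. Against WT, log2 fold changes of hepatocyte markers ran from -1.53 to 2.24 in the yap mutant and from -1.52 to 2.57 in the yap taz mutant. The part of these cell types in the gldc and mthfd1l levels was not tested.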

How the data were processed

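The authors deposited 1 table of raw counts per Ensembl gene, and per the submitters' processing notes STAR 2.3.0e and HTSeq 0.6.0 were used. The genome build, the annotation and whether counting used strand are not given in the sources at hand, so overlapping or antisense genes and near-identical paralogues may share reads. Per the labels' protocols, RNA was extracted with Trizol and a column kit and sequenced on an Illumina HiSeq. Groups came from the genotype labels.

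The filter was filterByExpr by genotype, with a minimum count of 10 and a minimum total of 15, and passed 19493 genes. Libraries were scaled by TMM, and one coefficient per genotype was fitted without a block to 12 libraries (edgeR 4.0.16, R 4.3.3). Quasi-likelihood tests were two-sided, with Benjamini-Hochberg adjustment over all genes and calls at 0.05. Log2 CPM used a prior count of 2. Levels were not divided by gene length, so comparisons of level between genes, such as the share of dldh in a sum, concern counts only. Summed levels give more weight to long and abundant genes.

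The 2 genes and the 14 gene lists were chosen with earlier results of these data known. Of 147 list symbols, 142 matched, giving 151 genes. The supplied names often lack the zebrafish paralogue letter, so identifiers distinguish paralogues. Named genes were the pair, all glycine cleavage and mitochondrial folate genes, called genes of the other one-carbon lists, up to 4 purine and 4 amino acid response genes by smallest p, and the 5 nearest patterns per gene (mean log2 CPM of at least 1). The genes gart, psph, asns and the second mthfd1 were added after their values were seen. One gene of the lists enters the counts and is not reported here by name.

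Same-numbered libraries were checked by correlating deviations from group means across genes. WT and yap mutant pairs gave 0.18, 0.306, 0.282 and 0.388, all above the 0.1 set for pairing. The calls reported between WT and the yap mutant nonetheless come from the fit without a block. Results with the block are given as an alternative. WT and yap taz mutant pairs gave 0.166, 0.103, 0.0717 and -0.00482, and pairs of the mutants stayed below 0.1, so these were not treated as paired. Alternatives were RLE or upper-quartile scaling, no filter, a minimum of 1 CPM in 4 or more libraries, the 8 libraries of a comparison alone, the replicate block, limma-voom (limma 3.58.1), DESeq2 1.42.0 and each library left out. The fit was also run on simulated counts. These were drawn without a link between same-numbered libraries, so that run cannot speak to pairing. Its values are not given here. Promoter sequence was not analysed here.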

Additional observations from a re-analysis of the deposited data

Results flagged for a closer look

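Each of 47 genes was looked at in the 3 genotypes, giving 141 groups of 4 libraries. In 7 of these groups a single library stood apart from the other 3. The groups reuse the same 12 libraries, and how many such libraries chance alone would give was not tested. No such library was found for gldc or mthfd1l. The gcsha level was 28.7 CPM in yap mutant 3, with the others at 22.4 to 23.1 CPM. The tdh level was 148 CPM in yap taz mutant 1, with the others at 166 to 169 CPM. PPAT was at 121 CPM in yap taz mutant 1, with the others at 142 to 144 CPM. TRIB3 was at 33.5 CPM in WT 3, with the others at 27.3 to 28.3 CPM. AHCYL1 was at 142 CPM in yap taz mutant 4, with the others at 118 to 122 CPM. The srr level was 5.52 CPM in yap taz mutant 2, with the others at 8.43 to 8.83 CPM. SLC46A1 was at 4.58 CPM in yap taz mutant 3, with the others at 6.34 to 6.66 CPM.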

How the results depend on the processing

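Over 21 alternatives the log2 fold change of gldc stayed at 1.34 to 1.59, 2.41 to 2.59 and 0.89 to 1.15 for yap mutant over WT, yap taz mutant over WT and yap taz mutant over yap mutant, and that of mthfd1l at 0.29 to 0.60, 0.92 to 1.22 and 0.54 to 0.74, the ends of each range coming from left-out libraries. With the replicate block the yap mutant stood above WT by 1.43 ± 0.162 for gldc and 0.43 ± 0.133 for mthfd1l. Genes called between the yap mutant and WT numbered 1780 in the fit reported, 2758 with the replicate block in 12 libraries, 1163 with the 8 libraries alone, 3380 with the block in those 8, and 942 to 3041 with a library left out: 1076 without WT 2, 1059 without WT 3, 942 without yap mutant 1, 3041 without yap mutant 3 and 954 without yap mutant 4. The one-carbon genes among them numbered 11, then 17 and 22 with the block in 12 and in 8 libraries, and 7 to 16 with a library left out. Between the mutants 814 genes were called, 1443 with the block, and 441 to 1087 with a library left out (468 without yap mutant 2, 538 without yap mutant 3, 441 without yap taz mutant 2 and 497 without yap taz mutant 4), of which one-carbon genes were 10, with a range of 4 to 11. For the yap taz mutant against WT, the left-out range was 4452 to 5731 genes and 23 to 30 one-carbon genes. Of the one-carbon calls, 6 of 11, 20 of 29 and 2 of 10 held in every alternative, and 0 reversed. The mthfd2 call between the mutants was lost with the block in 8 libraries (adjusted p = 0.052). The cause of these shifts was not tested. Low-count genes such as slc25a38 (ENSDARG00000059805) are limited by depth.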
